A study of Mus musculus with 4 samples.

Results

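LKB1, the protein kinase encoded in the mouse by Stk11, works as part of a complex of 3 proteins, and the RNA of the 5 genes that encode its parts was described in mouse neural crest cells with and without siRNA against Stk11. The genes were Stk11 (gene ID 20869), Strada (72149), Stradb (227154), Cab39 (12283) and Cab39l (69008). They were selected by symbol and made up 5 of the 15768 genes listed, all of which passed the filter on low counts that left 12222 genes. By gene ID they held 28 of the 53915 RefSeq transcripts listed, 18 of which were among the 34279 transcripts tested.

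LKB1 is a tumour suppressor kinase that is largely inactive on its own. Binding of STRAD, a pseudokinase that has the fold of a kinase but little or no catalytic activity, turns it on and holds it in the cytoplasm, and the scaffold protein MO25 clamps the pair together. The active complex phosphorylates the activation loop of AMPK, the energy sensor of the cell, and of a family of related kinases that act on polarity, metabolism and transcription. Each partner has a pair of genes in mammals: Strada and Stradb encode STRADα and STRADβ, and Cab39 and Cab39l encode MO25α and MO25β. In the neural crest, loss of LKB1 is known to disturb the formation of peripheral glia and of the enteric nervous system.

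Cells of JoMa1.3, a mouse line of neural crest progenitors that is conditionally immortalised, were sampled, and the study looked for effectors downstream of LKB1. The control siRNA group, labelled WT for genotype, received a non-targeting pool of siRNAs, and the Lkb1 siRNA group, labelled Lkb1 KD, received a SMART pool, that is a mixture of siRNAs, against Stk11. The concentration was 60 nM in both groups, and RNA was taken 72 hours after transfection. Each group held 2 libraries, 1 from batch 1 and 1 from batch 2, and values are given in that order; all cells were of 1 line, and the labels name a pair of transfection reagents without tying either to a library. The groups differ in the amount of Stk11 RNA left, since siRNA degrades a transcript and does not remove the gene, and protein was not measured.

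Gene counts came to between 17426719 and 19324675 per library, so a member's counting error (the SD that counting alone gives) lay between 2.1% for Stk11 and 6.4% for Stradb. Of 10 neural crest markers 8 were measured, with a sum of 175.53 to 188.61 FPKM (fragments per transcript length and library size). Twist1, Tfap2b, Snai2, Ets1, Sox9 and Nes lay above 12 FPKM in every library. Tfap2a lay at 1.85 to 2.26 FPKM and Ngfr below 1 FPKM, while Sox10 and Foxd3 were not analysed here. Markers of glia (3 of 5 measured), endothelium (3 of 3) and epithelium (2 of 3) summed to at most 0.85 FPKM in any library. S100b, Fabp7 and Krt14 of these lists were not analysed here. Of 5 neuron markers only Tubb3 was analysed here, at 7.75 and 7.71 FPKM with control siRNA and 11.60 and 8.24 FPKM with Lkb1 siRNA, and of 3 blood and immune markers only Cd68, at 0.95 and 0.92 against 1.51 and 1.14 FPKM. Both were higher in both Lkb1 siRNA libraries, and their part in the results was not tested. The smooth muscle list (4 of 4 measured) summed to 381.74 to 408.39 FPKM in the control siRNA libraries and to 307.48 to 327.01 FPKM in the Lkb1 siRNA libraries. That sum came from Acta2 and Tagln, with the defining marker Myh11 at or below 0.07 FPKM and Cnn1 at 0 in 3 of 4 libraries, and its part in the results was not tested.

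The RefSeq forms of Stk11 printed here differ at the start or the end of the coding sequence, and these stretches are shown to identify them. The coding sequences of the long form NM_011492 and the short form NM_001301853 were identical over their first 1118 bases. After that they differed, over 193 coding bases of the long form, out of 1311, and 121 of the short form, out of 1239. In the lines of these forms, the last 30 shared bases are in lower case and the bases that differ, up to and including the stop codon, are in capitals. The coding sequence of NM_001301854 was the last 933 bases of that of the long form, so that 378 bases at the start, which encode the beginning of the protein, were absent from it. Its line gives the first 60 coding bases in capitals after the 30 bases that precede them in the long form. The sequences were read 5′ to 3′ from GENCODE M21 transcripts (GRCm38) that carry these RefSeq accessions.
NM_011492, long end: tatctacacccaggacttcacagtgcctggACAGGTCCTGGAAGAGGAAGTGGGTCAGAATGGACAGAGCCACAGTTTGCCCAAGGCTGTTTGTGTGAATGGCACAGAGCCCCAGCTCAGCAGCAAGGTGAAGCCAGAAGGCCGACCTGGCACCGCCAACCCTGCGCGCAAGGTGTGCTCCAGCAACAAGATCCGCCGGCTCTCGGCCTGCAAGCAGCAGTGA
NM_001301853, short end: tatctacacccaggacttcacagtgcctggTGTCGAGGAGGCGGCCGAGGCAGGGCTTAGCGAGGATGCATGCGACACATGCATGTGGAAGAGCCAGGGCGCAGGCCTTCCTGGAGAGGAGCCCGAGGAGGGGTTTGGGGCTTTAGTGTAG
NM_001301854, internal start: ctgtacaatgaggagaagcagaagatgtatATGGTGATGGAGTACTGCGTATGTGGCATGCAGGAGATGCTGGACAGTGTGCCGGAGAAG

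Stk11 RNA was lower after Lkb1 siRNA. With control siRNA it stood at 52.72 FPKM in batch 1 and 52.10 FPKM in batch 2, and with Lkb1 siRNA at 36.33 and 36.93 FPKM. Both Lkb1 siRNA libraries lay below both control siRNA libraries, and libraries of 1 group differed from each other by less than 1 FPKM. The group means were 52.4 ± 0.44 and 36.6 ± 0.42 FPKM (SD, n = 2 each). The log2 fold change of Stk11 in edgeR's quasi-likelihood test was -0.55 (SE 0.0659, adjusted p = 0.0378), which is a change of -31.7% with a 95% confidence interval of -38.4 to -24.3%. Within batch 1 the log2 difference was -0.58 and within batch 2 it was -0.52. Stk11 was the fourth gene by p among those tested, and it was 1 of the 6 genes, 0.0491% of those tested, that passed as lower; 4 genes (0.0327%) passed as higher. The call was lost with library size as the only scaling (adjusted p = 0.0633) and with limma on log2(FPKM + 1) and log2(FPKM + 0.1) (adjusted p = 0.163 and 0.141). Fewer cells with Stk11 RNA and less Stk11 RNA per cell cannot be told apart in bulk RNA. Beyond a number and a batch the labels give no word on whether cultures were independent, so the p-values measure the spread between these libraries.

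**Figure D1:**
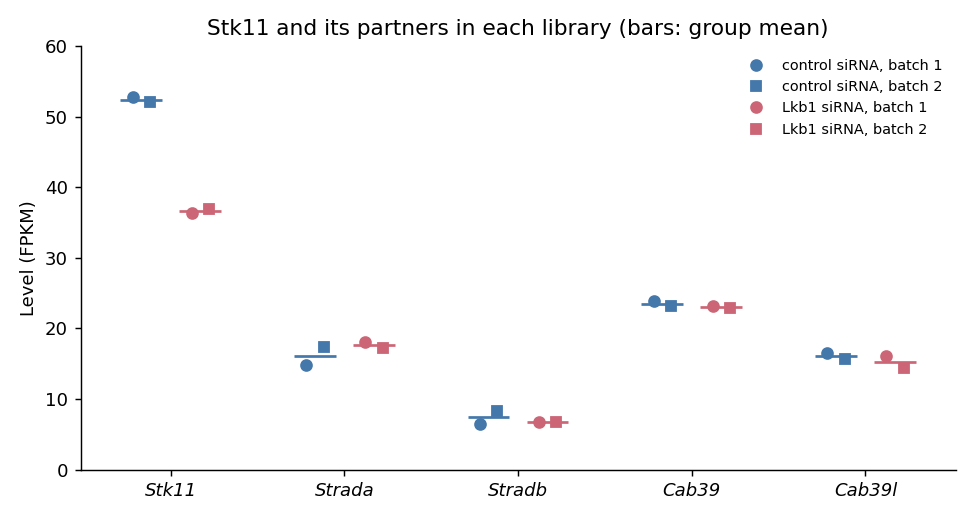
Level of Stk11, Strada, Stradb, Cab39 and Cab39l in FPKM (vertical axis, from 0) in each of the 4 libraries; circles are batch 1, squares batch 2, blue is control siRNA, red is Lkb1 siRNA, and bars are group means. Stk11 is the highest of the 5 genes in every library and has the widest gap between groups, at 52.10 to 52.72 FPKM against 36.33 to 36.93 FPKM; the groups of Cab39 also do not overlap, at 23.14 against 23.11 FPKM where they are closest.

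In the control siRNA libraries the order of levels was Stk11, Cab39, then Strada and Cab39l with overlapping values, then Stradb. The share of measured genes with a lower control level was 88.2% for Stk11, 74.9% for Cab39, 66.5% for Strada, 66.4% for Cab39l and 50.5% for Stradb. After Lkb1 siRNA Stk11 was still the highest of the 5, since its lower library, at 36.33 FPKM, lay above the highest value of Cab39 in any library, 23.84 FPKM.

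None of the 4 partner genes passed the test. Strada, which encodes the STRAD form first described with LKB1, had 14.83 and 17.38 FPKM with control siRNA against 18.03 and 17.23 FPKM with Lkb1 siRNA. The groups overlapped, and the batch 1 control library was the lowest of the 4. The log2 fold change was 0.09 (SE 0.095, adjusted p = 0.771), with 0.21 in batch 1 and -0.03 in batch 2. The 95% confidence interval of the change ran from -8.3 to 23.3%.

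Stradb, whose product can also bind LKB1, was the lowest member. Its level was 6.51 FPKM in the batch 1 control and 8.27 FPKM in the batch 2 control, and 6.69 and 6.78 FPKM after Lkb1 siRNA. The batch 2 control library alone stood above the other 3, and the control libraries differed from each other by 0.32 on the log2 scale. The log2 fold change was -0.17 (SE 0.135, adjusted p = 0.67), made up of -0.01 in batch 1 and -0.31 in batch 2. The 95% confidence interval ran from -28.0 to 9.6%, the widest of the 5 genes.

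Cab39, which encodes the MO25α scaffold, held 23.84 and 23.14 FPKM with control siRNA and 23.11 and 22.96 FPKM with Lkb1 siRNA. The groups did not overlap, though the lower control library, at 23.14 FPKM, and the higher Lkb1 siRNA library, at 23.11 FPKM, nearly met. On counts scaled to library size (CPM), Cab39 had 84.9 and 80.5 with control siRNA and 79.5 and 77.8 with Lkb1 siRNA, again without overlap. On that measure groups that did not overlap, with Lkb1 siRNA lower, were found for 21.4% of all genes tested, and for 21.2% with Lkb1 siRNA higher. The log2 fold change of Cab39 was -0.07 (SE 0.0687, adjusted p = 0.737), and its interval, -14.6 to 5.9%, was the narrowest among the partners.

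Cab39l, which encodes MO25β, had 16.53 and 15.61 FPKM in the control group and 16.14 and 14.38 FPKM in the knockdown group. The groups overlapped and the batch 2 library was the lower of each group. The log2 fold change was -0.11 (SE 0.0895, adjusted p = 0.677), with -0.08 in batch 1, -0.14 in batch 2 and a 95% confidence interval of the change from -19.4 to 6.5%. The intervals of all 4 partners thus reached less far down than the estimate for Stk11, -31.7%. That of Stradb, which reached -28.0%, still overlapped the Stk11 interval of -38.4 to -24.3%. None of the partners passed with batch as a replicate block either (adjusted p of 0.296 to 0.494). In that fit 6.99% of all genes tested passed as lower and 6.59% as higher, Stk11 among the former (adjusted p = 1.28e-22). With only 2 libraries per group and a batch term, that fit borrows much of its spread from other genes. The size of this p therefore does not rest on the Stk11 values alone.

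**Figure D2:**
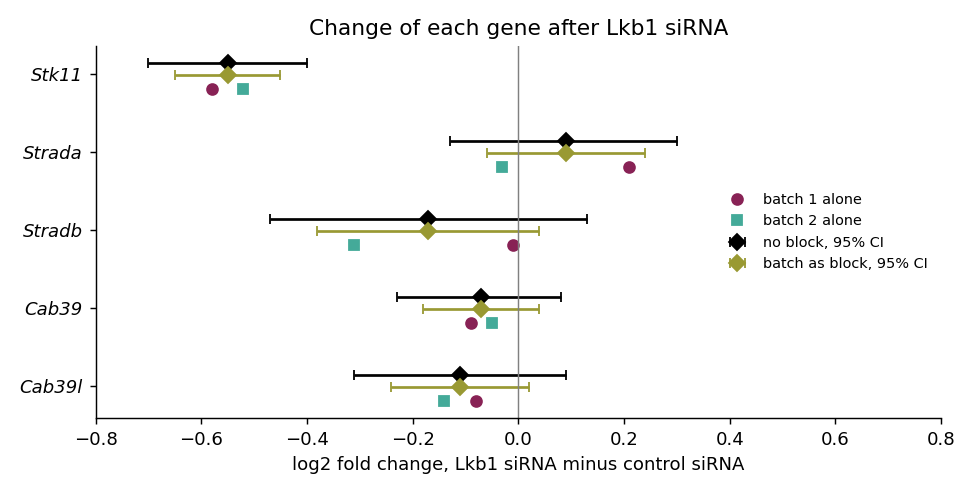
Log2 fold change (horizontal axis, Lkb1 siRNA minus control siRNA) of the 5 genes; diamonds with bars are edgeR estimates with 95% confidence intervals, black without and olive with batch as a block, and circles and squares are the differences within batch 1 and batch 2 alone. The Stk11 interval, -0.70 to -0.40, lies below 0, and those of the other 4 genes cross 0.

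Adding the members of each pair gave the RNA for each kind of partner. Strada and Stradb together came to 21.34 and 25.65 FPKM with control siRNA and to 24.72 and 24.01 FPKM with Lkb1 siRNA, so the groups overlapped. Cab39 and Cab39l together came to 40.37 and 38.75 FPKM and to 39.25 and 37.34 FPKM, again with overlap. Strada made up 69.5 and 67.8% of the STRAD sum in the control libraries and 72.9 and 71.8% after Lkb1 siRNA, which did not overlap. The log2 ratio of Strada to Stradb differed by 0.26 between the groups, by 0.24 in batch 1 and 0.27 in batch 2, although neither gene passed on its own. Cab39 made up 59.1 and 59.7% of the MO25 sum and then 58.9 and 61.5%, with overlapping groups. In two-sided exact permutation tests p was 0.333 for the Strada to Stradb ratio (0.667 adjusted over the 2 ratios), the smallest value that 2 libraries against 2 allow, and 1.0 for the Cab39 to Cab39l ratio (1.0 adjusted).

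The amount of Stk11 RNA relative to each partner was lower in both Lkb1 siRNA libraries than in both control libraries for each of the 4 partners. For Strada the FPKM ratio was 3.55 and 3.0 with control siRNA and 2.01 and 2.14 with Lkb1 siRNA, a mean log2 difference of -0.65 (-0.82 in batch 1, -0.48 in batch 2). For Stradb it was 8.10 and 6.30 against 5.43 and 5.45, a difference of -0.39 (-0.58 and -0.21). These ratios to the STRAD genes varied between control libraries along with Strada and Stradb themselves. For Cab39 the ratio was 2.21 and 2.25 against 1.57 and 1.61, a difference of -0.49 in each batch. For Cab39l it was 3.19 and 3.34 against 2.25 and 2.57, a difference of -0.44 (-0.50 and -0.38). The ratio to Cab39 was the steadiest of the 4 between batches.

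Against the STRAD sum Stk11 RNA stood at 2.47 and 2.03 in the control libraries and at 1.47 and 1.54 after Lkb1 siRNA, above 1 throughout. Against the MO25 sum it stood at 1.31 and 1.34 and then at 0.93 and 0.99. Stk11 RNA per length was therefore above the summed MO25 RNA in both control libraries and below it in both Lkb1 siRNA libraries. In the batch 2 Lkb1 siRNA library, at 0.99, the ratio was close to 1, and the counting error of Stk11 there was 2.5%. Each of the 4 ratios to single partners gave p = 0.333 in a two-sided exact permutation test over the libraries (0.333 also when adjusted over the 4), the smallest that this design allows, so none could reach 0.05. The 4 ratios share the Stk11 values.

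**Figure D3:**
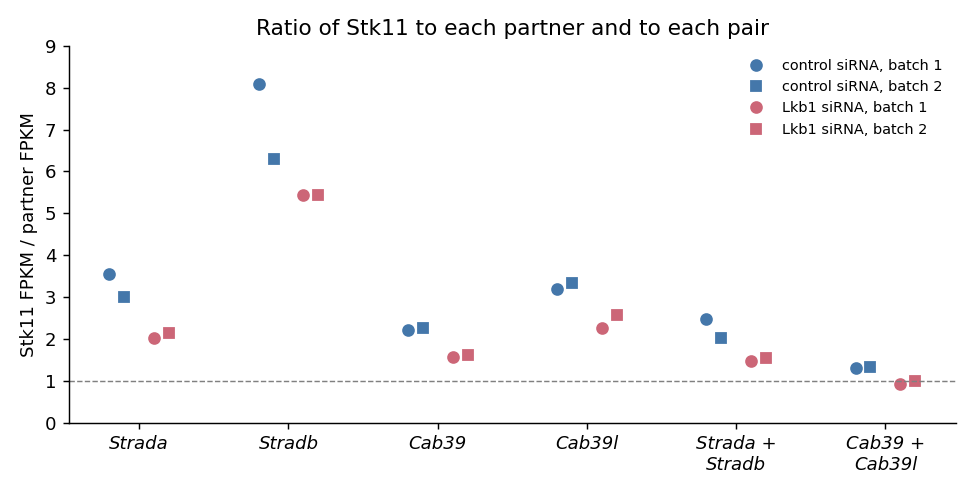
Ratio of Stk11 FPKM to the FPKM of each partner gene and of each summed pair (vertical axis, from 0), per library; symbols and colours mark batch and siRNA, and the dashed line marks a ratio of 1. Red points lie below blue points for every partner, and only the ratios to the summed MO25 genes go from above 1 (1.31 and 1.34) to below 1 (0.93 and 0.99, the latter close to 1).

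At the transcript level, the lower Stk11 RNA lay mainly in the long form. NM_011492 ends in the 193 bases printed with the sequences above, as does the rare NM_001301854. The long form held 49.75 and 49.41 FPKM with control siRNA and 35.15 and 34.50 FPKM with Lkb1 siRNA. Both knockdown libraries lay below both controls, at a log2 difference of -0.56 in batch 1 and -0.55 in batch 2. Its share of Stk11 FPKM was 94.6 ± 0.35% with control siRNA and 95.1 ± 2.36% with Lkb1 siRNA (SD, n = 2 each). Its log2 fold change was -0.56 (SE 0.0526), and it ranked 8 by p among all transcripts tested, yet its adjusted p was 0.687. No transcript at all passed that test (0.0% of 34279, edgeR's quasi-likelihood test, with or without batch as a block), although 1239 had an unadjusted p under 0.05 as lower and 1074 as higher. With DESeq2, where 1.9% of transcripts passed as lower and 602 transcripts passed as higher, NM_011492 passed with an adjusted p of 3.71e-12.

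The other Stk11 forms were rare. The short form NM_001301853 had 1.59 and 1.46 FPKM with control siRNA and 0.55 and 1.35 FPKM with Lkb1 siRNA. The internal-start form NM_001301854 had 0.90 and 0.61 FPKM against 0.36 and 0.91 FPKM, and the predicted form XM_006513439 had 0.49 and 0.62 FPKM against 0.27 and 0.17 FPKM. The first and the last were lower in both knockdown libraries, while the internal-start form overlapped. Their log2 fold changes of -0.74, -0.31 and -1.36 had standard errors of 0.67 to 0.991, and at 54.11 estimated counts or fewer per library none passed. Of the 18 tested transcripts of all members, 7 did not overlap with Lkb1 siRNA lower and 2 with Lkb1 siRNA higher on scaled counts. Among all transcripts tested these shares were 19.1 and 18.5%. The 7 include the Stk11 forms NM_011492, NM_001301853 and XM_006513439, and also NM_001360591 of Cab39l, which was listed at 0 in 1 library.

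Transcripts of Strada were shared out differently in every library. XM_006534294, the most abundant, had 8.24 and 7.86 FPKM in the controls against 5.98 and 10.43 FPKM after Lkb1 siRNA, the lowest and the highest of the 4 values both falling in the knockdown group. XM_006534297 had 0.72 and 1.33 FPKM against 4.31 and 1.66 FPKM, a log2 difference of 2.42 in batch 1 and 0.27 in batch 2, and did not pass (log2 fold change 1.49, SE 0.694, adjusted p = 0.917). NM_028126 had 3.01 and 2.66 FPKM against 2.32 and 2.75 FPKM, and XM_006534296 had 2.71 and 3.06 FPKM against 3.62 and 2.30 FPKM, both overlapping. XM_006534295 went from 0.14 and 1.73 FPKM to 1.42 FPKM and a listed 0 in batch 2, so no fold is given. Most Strada reads thus went to predicted XM models whose estimates moved between libraries more than the gene total did. Stradb had 1 transcript, NM_172656, with the same counts as the gene; its scaled counts did not overlap on the transcript scale but did on the gene scale.

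The estimates for the main transcript of Cab39 and for a predicted one differed in direction in both batches, without passing. NM_133781, the main transcript, had 18.42 and 17.79 FPKM with control siRNA and 16.11 and 13.47 FPKM with Lkb1 siRNA. The predicted transcript XM_006529091 had 4.30 and 4.90 FPKM and then 5.58 and 8.64 FPKM. The former was lower and the latter higher in both knockdown libraries, and the batch 2 Lkb1 siRNA library was the most extreme for each. As a share of Cab39, NM_133781 went from 77.1 ± 0.27% to 64.2 ± 7.83% and XM_006529091 from 19.6 ± 2.22% to 30.8 ± 9.52% (SD, n = 2 each), against a near-constant gene total. The log2 fold changes were -0.34 (SE 0.116, adjusted p = 0.739) and 0.58 (SE 0.261, adjusted p = 0.893).

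NM_001355046 and XM_036155674, the other tested Cab39 transcripts, reached at most 0.93 FPKM and were each listed at 0 in the batch 2 control. For Cab39l, NM_026908 held 14.60 and 14.48 FPKM against 14.07 and 12.67 FPKM, which is 90.6 ± 3.10% and 87.6 ± 0.70% of the gene, with both knockdown libraries below both controls (log2 fold change -0.17, SE 0.0896, adjusted p = 0.967). The other tested Cab39l transcripts were NM_001360592, at 0.94 and 0.38 FPKM against 1.59 and 0.73 FPKM, and NM_001360591 and XM_017316177, each at most 0.49 FPKM and listed at 0 in at least 1 library. Of the 28 transcripts, 15 were listed at 0 in at least 1 library.

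A test of transcript usage, which asks whether a transcript moved apart from the rest of its gene, called no member. Adjusted p was 1.0 for the 4 members with more than 1 tested transcript and for each of their transcripts, Cab39 included. Among all genes with more than 1 tested transcript, 1.83% of 7490 genes and 0.0606% of 29702 transcripts passed for usage. The error of dividing reads among transcripts, which share most of their sequence, was not modelled. Of the Stk11 forms printed above, NM_011492 and NM_001301853 have 1118 coding bases in common, and all 933 of NM_001301854 lie within NM_011492.

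**Figure D4:**
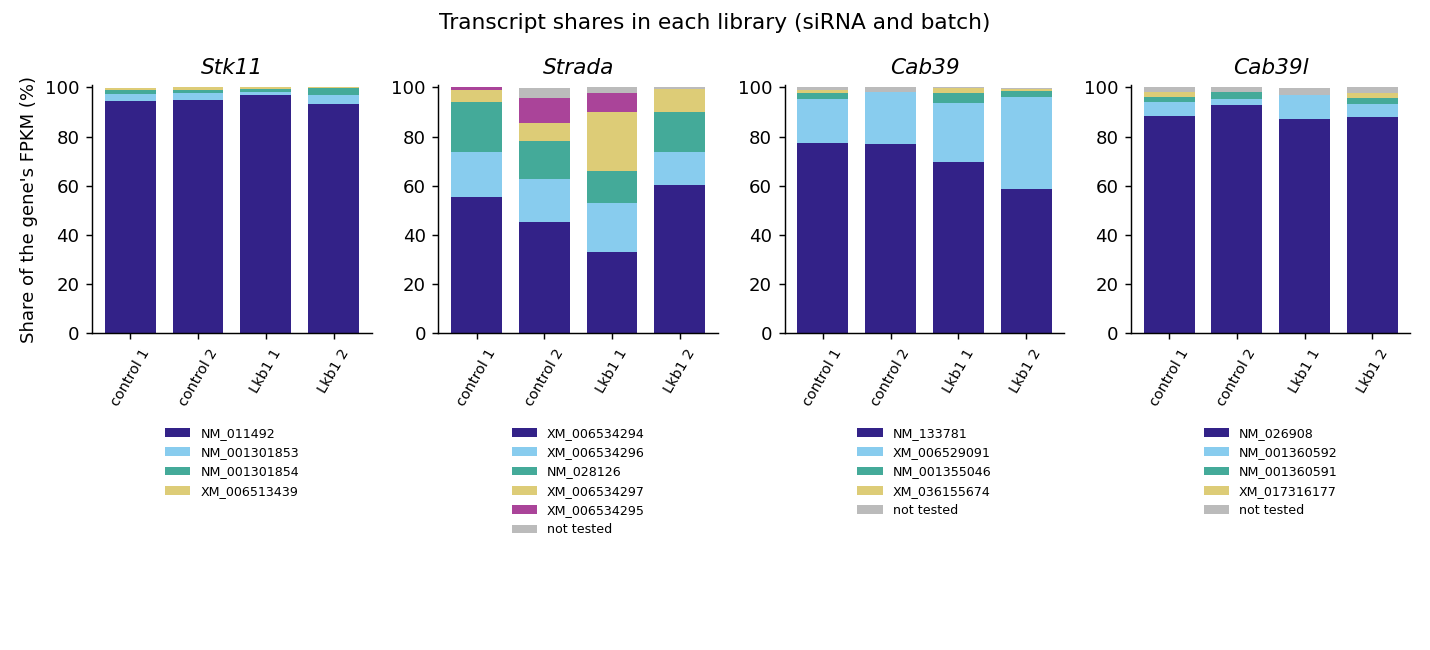
Share of each gene's FPKM taken by each tested transcript (vertical axis, %), per library, for the 4 members with more than 1 transcript; grey is the sum of transcripts that were not tested, and libraries are named by siRNA and batch. NM_011492 takes over 93% of Stk11 in each library, Strada is split differently in each, and the share of NM_133781 in Cab39 is 77.3 and 76.9% with control siRNA against 69.7 and 58.6% with Lkb1 siRNA.

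Reads were 150 bases long, and the paralogs were compared by their coding sequences. The coding sequences of Strada and Stradb were identical at 64.8% of aligned bases and those of Cab39 and Cab39l at 76.3%. The longest stretch that the compared transcripts shared exactly was 14 bases for the STRAD pair and 17 bases for the MO25 pair. Where genes overlap on opposite strands, reads cannot be told apart unless strand was counted, which the sources used here do not state. In RefSeq on GRCm38, Stk11 overlapped Cbarp by 246 bases and Stradb overlapped Trak2 by 824 bases, both on the opposite strand. Cbarp had 3.36 and 3.92 FPKM with control siRNA and 3.32 and 3.53 FPKM with Lkb1 siRNA (log2 fold change -0.12, adjusted p = 0.791), and Trak2 had 7.96 and 8.02 against 9.11 and 9.01 FPKM (0.15, adjusted p = 0.5).

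Other genes of the LKB1 pathway were read from 5 lists that named 36 genes, of which 35 were measured and 33 tested; Brsk2 was not analysed here, and Prkag3 and Stk26 did not pass the filter on low counts. None passed in either direction in the test that called Stk11, nor with DESeq2. With batch as a replicate block 2 passed as higher and 3 as lower, beside the 6.59 and 6.99% of all genes. The log2 fold change was above 0 for 24 and below 0 for 9, against 6130 and 6092 of all genes tested, and the median was 0.039 against 0.0005. The difference had the same sign in both batches for 20 of the 33, and for 8217 of all 12222 genes tested. The genes named below had the smallest p of their lists, a choice that favours the same sign in both batches.

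Among the kinases that LKB1 phosphorylates, 13 were tested, with a median log2 fold change of 0.053. Prkaa1, which encodes the catalytic α1 subunit of AMPK, had 20.31 and 20.28 FPKM with control siRNA and 18.57 and 18.11 FPKM with Lkb1 siRNA (log2 fold change -0.18, SE 0.0669, adjusted p = 0.358, with the block 0.0112). Sik2, a salt-inducible kinase that acts on CREB coactivators, had 5.77 and 6.15 FPKM and then 4.96 and 5.30 FPKM (-0.24, SE 0.0876, adjusted p = 0.358, with the block 0.014). Both were lower in each batch. Mark1, a kinase of microtubule-associated proteins, had 0.61 and 0.54 against 0.76 and 0.75 FPKM (0.49, adjusted p = 0.5), and Prkaa2, the other catalytic AMPK gene, 0.69 and 0.55 against 0.78 and 0.75 FPKM (0.26, adjusted p = 0.633). Neither Mark1 nor Prkaa2 passed with the block.

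Of the regulatory subunits of AMPK, Prkab1, the β1 scaffold of the trimer, had 23.76 and 22.70 FPKM with control siRNA and 29.79 and 25.51 FPKM with Lkb1 siRNA (log2 fold change 0.21, SE 0.0947, adjusted p = 0.448, with the block 0.019). Prkag1, Prkab2 and Prkag2 had log2 fold changes of 0.09, 0.07 and 0.04 and did not pass either way. MO25 also binds the kinases Stk24, Stk25, Stk39 and Oxsr1. Stk39, which encodes the SPAK kinase of ion cotransporters, had 19.44 and 18.26 against 17.54 and 15.55 FPKM (-0.25, SE 0.0916, adjusted p = 0.358, with the block 0.0015), and the other 3 lay between 0.03 and 0.05 on the log2 scale. Prkab1 was thus higher and Stk39 lower in both batches, and both were called only in the fit with the block. The sign also agreed between batches for 8217 of the 12222 genes tested.

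Of the kinases other than LKB1 that phosphorylate AMPK or have been reported to, Map3k7, which encodes TAK1, had 13.80 and 13.89 FPKM with control siRNA and 16.21 and 15.85 FPKM with Lkb1 siRNA (log2 fold change 0.18, SE 0.0667, adjusted p = 0.375, with the block 0.0163). Camkk1 and Camkk2, the calcium-dependent kinases of AMPK, had 0.13 and 0.07 and did not pass. The 9 chaperones, lipid-modifying enzymes and binders of LKB1 had a median of -0.018 and none passed in either fit. Hsp90ab1, which encodes the HSP90β chaperone that stabilises LKB1, stood at 1986.86 and 1919.21 against 1906.55 and 1853.39 FPKM (-0.09, adjusted p = 0.596). Fntb, a subunit of the farnesyltransferase, Sirt1, a deacetylase, and Rce1, a protease of farnesylated proteins, had log2 fold changes of -0.13, 0.11 and 0.14 with adjusted p of 0.677 to 0.728.

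**Figure D5:**
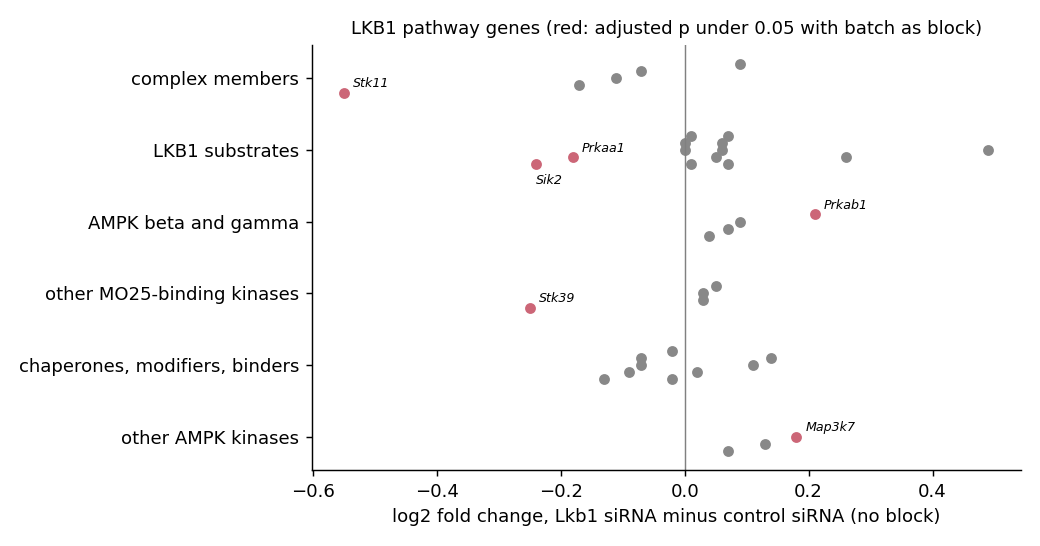
Log2 fold change (horizontal axis, fit without the block) of the 5 complex members and of the 33 tested genes of the other LKB1 lists, 1 point per gene; red marks an adjusted p under 0.05 with batch as a block, and vertical offsets only separate points. Stk11 lies at -0.55, and the genes of the lists lie between -0.25 and 0.49.

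Likeness to Stk11 was measured as the root mean square difference between log2 CPM values (counts scaled to library size) centred on each gene's mean over the 4 libraries, among 9370 genes with at least 10 CPM on average. Rab6b, a small GTPase of Golgi transport, came nearest at 0.029, with 29.9 and 27.5 CPM in the control libraries and 19.4 and 19.9 CPM in the Lkb1 siRNA libraries. Gldc, a subunit of the glycine cleavage system, followed at 0.030 with 17.2 and 17.6 against 12.1 and 11.9 CPM. Anxa3, an annexin, was at 0.036 with 77.8 and 75.1 against 52.5 and 49.6 CPM. The partners lay at 0.23 for Cab39l (rank 1739 of 9370) and Stradb (rank 1874), 0.24 for Cab39 (rank 2190) and 0.33 for Strada (rank 7332). These distances rest on 4 libraries and are a description.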

How the data were processed

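RNA-seq of 4 libraries of JoMa1.3 cells, 2 with control siRNA and 2 with Lkb1 siRNA, was analysed from a gene table and a transcript table. The submitters' processing notes name RSEM 1.2.8, Bowtie2 2.2.5, HISAT2 2.0.4 and the build GRCm39; their roles, the annotation release and strandedness are not given in the sources used here. The authors deposited, per the file headers, a read count for each library, which the values show to be an expected count (5.73 to 5.97% of gene counts and 64.1 to 66.1% of transcript counts were not whole). The deposited FPKM, made by the authors relative to length and library size, was used for levels and ratios. The deposited normalised read count and TPM were not used. In 14 gene cells and 31 transcript cells of the columns used the decimal point was doubled and was read as 1 point.

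Rounded counts entered edgeR 4.0.16 under R 4.3.3 (robust quasi-likelihood F-test, TMM, filterByExpr with a minimum count of 10), with Benjamini-Hochberg adjustment over all genes or transcripts tested and a threshold of 0.05; transcript usage was tested with diffSpliceDGE. Confidence intervals are 95%. Ratios were tested by exact permutation in SciPy 1.17.1, and coding sequences were aligned with Biopython 1.88. The scripts were tested on simulated counts. Libraries with the same number share a batch per the labels and are thereby paired; deviations of same-batch libraries correlated at 0.259 over 12222 genes. The fit without the block was the main one. Alternatives were other scalings and filters, DESeq2 1.42.0, limma 3.58.1 on log2 FPKM with pseudocounts of 1 and 0.1, the replicate block and leaving out each library.

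The members and lists were chosen with earlier results of these data known. Named were every member and each tested transcript of theirs, up to 4 genes with the smallest p of each list, the 3 genes most like Stk11, and genes that overlap a member. No genome of the files' build was used, so no coordinates are given.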

Additional observations from a re-analysis of the deposited data

How the results depend on the processing

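Stk11 kept its direction in all 12 alternatives, with log2 fold changes of -0.574 to -0.505, and passed in 9; it did not pass with library size only (-0.518), with limma and a pseudocount of 1 (-0.505) or of 0.1 (-0.516). Leaving out 1 library gave -0.574 to -0.529. No partner passed in any alternative; Strada ranged from -0.0005 to 0.183 when 1 library was left out, the lowest being without the batch 1 control library, Stradb from -0.32 (without the batch 1 control library) to -0.0025 (without the batch 2 control library), Cab39 from -0.111 to -0.033 and Cab39l from -0.197 to -0.023. The replicate block changed no call of a member. The log2 ratio of Stk11 to Strada was -0.819 in batch 1 and -0.484 in batch 2, and that to Stradb -0.577 and -0.21.

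Genes passing as higher and lower numbered 4 and 6, 2 and 1 with library size only, 13 and 32 with a filter of 1 count, 2 and 2 with a filter of 5 CPM, 18 and 31 with DESeq2, 0 and 0 with limma at either pseudocount, and 806 and 854 with the replicate block. Leaving out 1 library gave 24 to 136 and 42 to 143, where the lone library of an arm is assumed to vary like the others. Of the LKB1 lists 2 and 3 passed with the block and 0 in the other alternatives. DESeq2 passed 602 transcripts as higher and 652 as lower. For usage 18 transcripts passed, 0 with the block, 8 with a filter of 1 count and 7 to 14 without 1 library. The cause of these shifts was not tested.

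Rare or predicted transcripts changed sign, none of them called: XM_006534294 at 0.025 (library size only), 0.001 (5 CPM) and -0.47 to 0.321 without 1 library; XM_006534296 at 0.022 (library size only), 0.009 and 0.004 (limma) and -0.388 to 0.273. Without 1 library NM_001301854 ranged from -1.118 to 0.207, XM_006534295 from -7.978 to 2.125 and XM_017316177 from -6.029 to 5.912. The latter pair is listed at 0 in some libraries. At -7.978, -6.029 and 5.912 the remaining library of an arm is at 0, so the prior count sets these values. The 2.125 compares 4.66 estimated counts in the batch 1 control library with 43.38 and 0 after Lkb1 siRNA. None of these extremes is an estimate of a fold. Stradb, at 241 to 332 counts per library, has the least depth of the members.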
